A study of Mus musculus with 12 samples.

Results

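The clearance of dying cells by macrophages, efferocytosis, was examined through 10 genes: the receptor genes Mertk, Axl, Tyro3, Timd4, Lrp1 and Stab2, the bridging molecule genes Gas6, Pros1 and Mfge8, and the engulfment adaptor gene Elmo1. They were chosen by name, and each was found as 1 row among the 23438 genes of the deposited table. RNA was sequenced from bone marrow derived macrophages (BMDMs), primary macrophages grown from marrow, at day 7 of differentiation. Atherosclerotic C57 mice were the source of all libraries. There were 7 wild-type (WT) libraries and 5 libraries labelled Baf60a KO. Not given in the sources used here are how atherosclerosis was induced, how Baf60a was deleted, and the age and sex of the mice. The labels do not say that libraries came from separate mice, so a p-value here sets a difference against a spread that may be technical in part. Levels are TPM (a share of the library's transcripts, corrected for gene length), so genes can be set side by side within a library.

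A dying cell exposes phosphatidylserine on its surface. Macrophages bind this lipid directly, through receptors such as Tim-4 (encoded by Timd4) and stabilin-2 (Stab2), or through soluble bridges. Gas6 carries the lipid to the TAM receptor tyrosine kinases Tyro3, Axl and Mertk, and protein S (Pros1) to Tyro3 and Mertk. Mfge8 carries the lipid to integrins. Lrp1 is a large endocytic receptor that also takes up lipoproteins and takes part in uptake through calreticulin. Elmo1 works with Dock1 to activate Rac and so drives the membrane around the target. In plaques, failed clearance adds to the necrotic core, and Mertk is the TAM receptor best known for clearance there.

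Several facts of the libraries bear on these genes. Smarcd1, which encodes Baf60a, a subunit of the SWI/SNF chromatin remodelling complex, ranged from 5.99 to 7.58 TPM over the KO libraries and from 11.6 to 15.6 TPM over WT, so transcripts of the targeted gene remained. WT replicates 2, 3 and 4 stood apart from the other 9 libraries in markers of other cells. The summed TPM of 5 smooth muscle markers was 3156 to 8288 in these 3 libraries and 74.3 to 421 in the other 9, and that of 8 fibroblast markers was 869 to 1999 against 39.6 to 191. The sum of 8 neutrophil markers was 79.1 to 108 for them and 1003 to 6253 elsewhere. The scavenger receptor gene Marco, of the resident macrophage list, stood at 1569.9, 2043 and 1186 TPM there and at no more than 2.64 TPM elsewhere. The other 9 genes of that list summed to 211 to 371 TPM there and 233 to 498 TPM elsewhere, so their ranges overlapped. All 6 macrophage markers reached 1 TPM in every library, but their sum, most of it Lyz2, was 7969 to 9042 TPM in KO and 17541 to 19803 TPM in WT replicates 1, 5, 6 and 7. It was 19055, 24452 and 7096 TPM in WT replicates 2, 3 and 4. Lyz2 alone was at 4932 to 5853 TPM in KO and 14635 to 16912 TPM in WT replicates 1, 5, 6 and 7. Csf1r, which encodes the growth factor receptor of macrophages, had 170 to 275 TPM in WT replicates 2, 3 and 4 and 541 to 910.1 TPM elsewhere. Adgre1 and Itgam, of the same list, overlapped there. Adgre1 had 371 to 586 TPM in WT replicates 2, 3 and 4 and 448 to 653 TPM elsewhere. For Itgam these ranges were 188 to 287 TPM and 253 to 303 TPM. Between KO and WT replicates 1, 5, 6 and 7 the ranges of Csf1r, Adgre1 and Itgam overlapped. The sums for endothelial cells stayed at or below 51.2 TPM, for mast cells and basophils at or below 7.37 TPM, for dendritic cells at or below 2.41 TPM and for T and B cells at or below 0.43 TPM. In bulk RNA, fewer cells of a type and less RNA per cell cannot be told apart. Genotype results are therefore given with all 12 libraries and with the 9 left without WT replicates 2, 3 and 4.

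The 10 genes are protein coding and lie on 7 chromosomes in mm10 (GENCODE M21). The TAM receptor genes are Mertk (ENSMUSG00000014361, chr2:128698956-128802894, plus strand), Tyro3 (ENSMUSG00000027298, chr2:119797733-119818104, plus) and Axl (ENSMUSG00000002602, chr7:25757273-25788705, minus). The bridging molecule genes are Gas6 (ENSMUSG00000031451, chr8:13465374-13494490, minus), Pros1 (ENSMUSG00000022912, chr16:62854307-62929346, plus) and Mfge8 (ENSMUSG00000030605, chr7:79133768-79149060, minus). The other uptake receptor genes are Timd4 (ENSMUSG00000055546, chr11:46810800-46844332, plus), Lrp1 (ENSMUSG00000040249, chr10:127538161-127621148, minus) and Stab2 (ENSMUSG00000035459, chr10:86841198-87008025, minus). The adaptor gene Elmo1 (ENSMUSG00000041112) spans chr13:20090596-20608353 on the plus strand.

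Among the 7 members with enough transcript to be tested, Axl and Mfge8 were higher in WT replicates 2, 3 and 4 than in the other WT libraries, and Lrp1 and Elmo1 were lower. Their promoters are shown for this reason, as the 250 bases before the RefSeq start (GRCm38.p6, 5′ to 3′ on the gene's strand). Capitals mark matches, on either strand, to the Sp1 box GGGCGG, the PU.1 core GAGGAA or the TATA box TATAAA. A match on the other strand is printed as its reverse complement. The windows are chr7:25788734-25788983 (minus strand) for Axl, chr7:79149061-79149310 (minus) for Mfge8, chr10:127621149-127621398 (minus) for Lrp1 and chr13:20090257-20090506 (plus) for the upstream of the 2 RefSeq promoters of Elmo1.
Axl: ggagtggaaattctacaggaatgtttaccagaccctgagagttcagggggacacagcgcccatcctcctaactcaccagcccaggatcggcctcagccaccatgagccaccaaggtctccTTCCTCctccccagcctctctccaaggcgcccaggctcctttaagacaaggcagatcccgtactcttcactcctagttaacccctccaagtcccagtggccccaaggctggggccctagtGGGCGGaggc
Mfge8: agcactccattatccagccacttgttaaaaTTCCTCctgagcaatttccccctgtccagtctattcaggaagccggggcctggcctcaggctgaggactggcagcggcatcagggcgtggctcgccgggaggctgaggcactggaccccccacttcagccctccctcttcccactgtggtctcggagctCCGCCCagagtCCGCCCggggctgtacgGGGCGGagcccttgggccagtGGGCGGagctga
Lrp1: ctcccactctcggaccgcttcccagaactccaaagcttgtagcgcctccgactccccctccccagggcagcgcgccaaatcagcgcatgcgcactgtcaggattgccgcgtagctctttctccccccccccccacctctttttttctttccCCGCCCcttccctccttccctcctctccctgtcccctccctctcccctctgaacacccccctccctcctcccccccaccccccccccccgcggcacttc
Elmo1: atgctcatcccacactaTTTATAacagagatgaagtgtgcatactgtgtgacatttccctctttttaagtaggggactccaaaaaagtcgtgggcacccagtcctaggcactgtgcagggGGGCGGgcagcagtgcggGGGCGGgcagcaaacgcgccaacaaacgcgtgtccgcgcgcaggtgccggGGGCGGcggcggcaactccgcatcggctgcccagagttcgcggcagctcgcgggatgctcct

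In the windows shown, base composition did not tell the pair higher in WT replicates 2, 3 and 4 from the pair that was lower. GC contents were 60.0% (Axl), 65.2% (Mfge8), 67.2% (Lrp1) and 61.6% (Elmo1) against a median of 52.4% over 32851 promoters of the same length. The other Elmo1 promoter, not shown, had 43.6%. The Sp1 box occurred 1, 4, 1 and 3 times in the windows of Axl, Mfge8, Lrp1 and Elmo1, and in 32.7% of all promoters at least once. The PU.1 core, the centre of the site bound by a main transcription factor of macrophages, was found once each in the Axl and Mfge8 windows and in 23.3% of all promoters. The AP-1 site TGANTCA, in 6.75% of all promoters, was in no member's window. The same held for the CArG box, bound by the serum response factor of smooth muscle and stromal cells (1.47% of all promoters). The TATA box was in the Elmo1 window and in 12.4% of all promoters. The other Elmo1 promoter held no match to any of these motifs. These matches describe letters in the windows and no binding was measured.

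The order of the members within a library was examined first, since it shows which receptor and bridging molecule genes had the most transcript in these cultures. In each of the 9 libraries Lrp1 was the highest member, at 486 to 616 TPM. The bridging molecule genes Gas6 and Mfge8 were the next highest in 8 of the 9 libraries. Gas6 held a narrow range of 160 to 193 TPM, while Mfge8 ranged from 35.6 to 353 TPM, so the ranges of these neighbours overlapped. In KO replicate 1 Mfge8 came after Gas6, Axl and Elmo1. Gas6 stood above Mfge8 in WT replicate 6 and in KO replicates 1 and 4, and below it in the other 6. Axl followed at 48.1 to 91.1 TPM, and its range met that of Elmo1, 36.4 to 48.9 TPM, at the lower end. Mertk, at 24.4 to 29.6 TPM, lay below Elmo1 in all 9 libraries and above Pros1, at 10.8 to 18.1 TPM. Among all 11152 tested genes, the mean over the 9 libraries put Lrp1 at percentile 97.6, Mfge8 at 93.7, Gas6 at 92.9, Axl at 81.1, Elmo1 at 68.5, Mertk at 57.9 and Pros1 at 40.6.

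The remaining 3 members were at or near 0. Tyro3 stood at 0.14 to 0.66 TPM in the 9 libraries. Stab2, a receptor known mainly from sinusoidal endothelium, was at 0.07 to 0.48 TPM in 8 of them and at 1.17 TPM in KO replicate 5. Timd4, a receptor of resident macrophages, was listed at 0 in all 5 KO libraries and in WT replicates 1, 5 and 6, and at 0.01 TPM in WT replicate 7. These 3 genes did not reach 1 TPM in 5 libraries and were not tested, which left 7 of the 10 members for the tests of genotype.

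**Figure D1:**
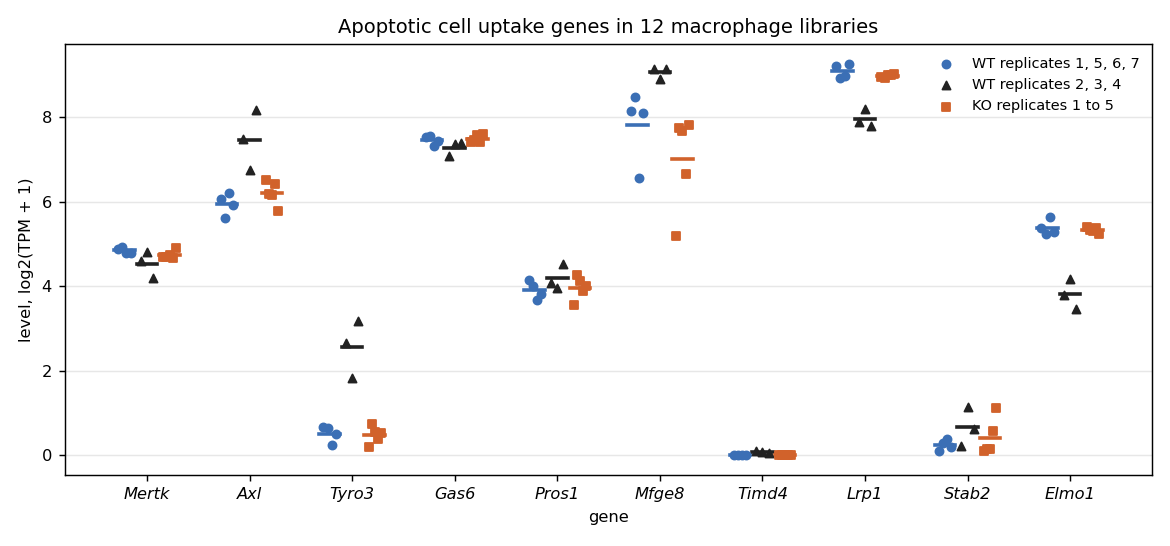
Level of each of the 10 genes in log2(TPM + 1), with 1 point per library and a short line at the mean of each group of libraries. Lrp1 leads in the 9 libraries other than WT replicates 2, 3 and 4 (black triangles), in which Mfge8 leads, and Tyro3, Timd4 and Stab2 lie near 0.

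Of the TAM receptors, Axl was the most abundant in 12 of 12 libraries. Axl made up 68.2 ± 4.86% of the summed TPM of Axl, Mertk and Tyro3 in WT replicates 1, 5, 6 and 7 (SD, n = 4) and 73.5 ± 5.42% in KO (SD, n = 5). Mertk held 31.3 ± 4.66% and 26.1 ± 5.29% of it. The ranges of the Axl share, 61.5 to 73.1% in these WT libraries and 64.7 to 78.6% in KO, overlapped. The ratio of Axl to Mertk was 1.63 to 2.73 in these 4 WT libraries, with a mean of 2.23, and 1.86 to 3.68 in the 5 KO libraries, with a mean of 2.93. It was 7.69, 3.92 and 16.7 in WT replicates 2, 3 and 4, above all 9 other libraries. Tyro3 held 2.34 ± 0.388% of the TAM sum in WT replicates 2, 3 and 4 (SD, n = 3), against 0.497% in the other WT and 0.417% in KO. The TAM sum itself was 207, 136 and 313 TPM there, against 89.9 ± 9.45 TPM in the other WT and 101 ± 12.3 TPM in KO. Among the TAM ligands, Gas6 exceeded Pros1 12.5 ± 1.17 times in WT replicates 1, 5, 6 and 7, 12.4 ± 2.11 times in KO and 9.14 ± 1.88 times in WT replicates 2, 3 and 4.

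**Figure D2:**
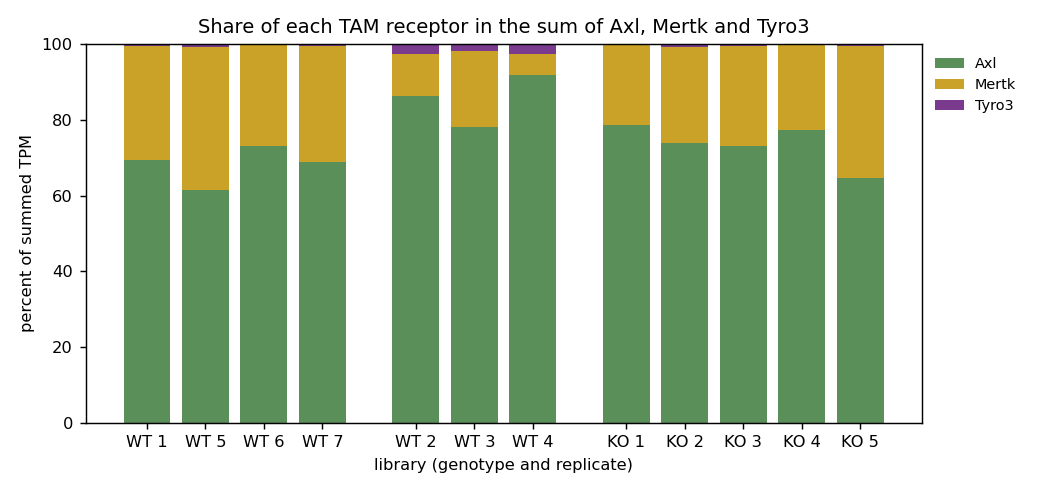
Stacked bars give the percent of the summed TPM of Axl, Mertk and Tyro3 held by each receptor, with 1 bar per library and the libraries grouped as WT replicates 1, 5, 6, 7, then WT replicates 2, 3, 4, then KO. Axl holds 61.5 to 78.6% in the 9 libraries and 78.2 to 91.9% in WT replicates 2, 3 and 4.

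The question the series states is whether macrophages without Baf60a differ from WT. No member differed between the genotypes past the threshold (limma, adjusted p under 0.05). This held for 0 of 7 tested members with 12 libraries, where 0.126% of all tested genes were called, and for 0 of 7 with 9 libraries, where 2.33% were called. At an unadjusted p under 0.05 there was 1 member of 7 with 12 libraries, Mfge8, against 17.5% of all tested genes, and 0 with 9, against 18.9%. For each of the 10 members the KO and WT ranges overlapped, also without WT replicates 2, 3 and 4, where 9.17% of tested genes had ranges that did not overlap. The median log2 difference of the 7 members, KO minus WT, was 0.02 with 12 libraries and -0.05 with 9, against 0.04 and 0.05 for all tested genes.

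The receptor genes are given first. Mertk stood at 24.7, 24.7, 25.8, 24.4 and 29.2 TPM in KO replicates 1 to 5 and 28.7, 29.6, 26.6 and 26.5 TPM over WT replicates 1, 5, 6 and 7. The lowest 4 KO libraries lay below these WT libraries, and KO replicate 5 lay among them. The log2 difference was -0.11 with 9 libraries (95% interval -0.25 to 0.03, limma adjusted p of 0.363) and 0.02 with 12 (-0.23 to 0.28, limma adjusted p of 0.900). Axl stood at 91.1, 71.7, 71.0, 84.1 and 54.3 TPM in KO replicates 1 to 5 and 66.3, 48.1, 72.6 and 59.6 TPM over WT replicates 1, 5, 6 and 7. KO replicates 1 and 4 lay above these 4 WT libraries and the other 3 KO libraries lay within their range. The log2 difference was 0.26 with 9 libraries (-0.09 to 0.61, limma adjusted p of 0.399). It was of the other sign, -0.39, with all 12 (-1.26 to 0.48, limma adjusted p of 0.529), where WT replicates 2, 3 and 4 held 179, 106 and 288 TPM.

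Lrp1 stood at 493, 486, 511, 508 and 516 TPM in KO replicates 1 to 5 and 589.9, 489.6, 501 and 616 TPM over WT replicates 1, 5, 6 and 7. The KO libraries were close together, at 503 ± 12.7 TPM (SD, n = 5), and lay in the lower part of the WT range, with 1 of them just below it. The log2 difference was -0.12 with 9 libraries (-0.27 to 0.03, limma adjusted p of 0.378) and 0.37 with 12 (-0.21 to 0.94, limma adjusted p of 0.393). Tyro3, Timd4 and Stab2 were too low for a test. Tyro3 was at 0.402 ± 0.194 TPM in KO (SD, n = 5) and 0.435 ± 0.184 TPM in WT replicates 1, 5, 6 and 7 (SD, n = 4).

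Of the bridging molecules, Mfge8 had the widest spread and the largest difference. It stood at 35.6, 212, 202, 100.1 and 225 TPM in KO replicates 1 to 5, at 284, 353, 93.8 and 273 TPM over WT replicates 1, 5, 6 and 7 and, for WT replicates 2, 3 and 4, at 559.6, 482 and 559.5 TPM. All KO libraries lay below the WT libraries other than replicate 6, and WT replicate 6 lay below 4 of the 5 KO libraries. The log2 difference with 12 libraries was -1.34 (95% interval -2.50 to -0.17, unadjusted p of 0.0279), and the limma adjusted p over all genes was 0.255. With 9 libraries it was -0.81 (-2.11 to 0.49, limma adjusted p of 0.497). Single libraries moved this value: with 9 libraries it was -0.35 without KO replicate 1 and -1.23 without WT replicate 6, and with 12 it was -0.88 without KO replicate 1.

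Of the ligands of the TAM receptors, Gas6 varied little between the 9 libraries and Pros1 more, 1.21-fold and 1.67-fold from lowest to highest. Gas6 was at 179 ± 11.4 TPM in KO (SD, n = 5) and 176 ± 12.6 TPM in WT replicates 1, 5, 6 and 7 (SD, n = 4). The log2 difference was 0.03 with 9 libraries (-0.11 to 0.16, limma adjusted p of 0.847) and 0.11 with 12 (-0.06 to 0.27, limma adjusted p of 0.402). Pros1 was at 14.9 ± 2.75 TPM in KO and 14.2 ± 2.25 TPM in the same WT libraries, with a log2 difference of 0.06 (-0.26 to 0.38, limma adjusted p of 0.866). With 12 libraries the Pros1 difference was -0.06 (-0.39 to 0.27, limma adjusted p of 0.802).

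The adaptor gene Elmo1 was at 41.1, 39.4, 38.7, 40.3 and 36.4 TPM in KO replicates 1 to 5 and 40.6, 36.5, 48.9 and 37.8 TPM over WT replicates 1, 5, 6 and 7. The groups overlapped except that KO replicate 5 was just below the lowest WT library of these 4. The log2 difference was -0.05 with 9 libraries (-0.23 to 0.12, limma adjusted p of 0.763) and 0.62 with 12 (-0.18 to 1.42, limma adjusted p of 0.335). The 9-library intervals of Gas6, Mertk, Lrp1 and Elmo1 all lay within 0.27 of 0, while those of Axl, Pros1 and Mfge8 reached 0.61, 0.38 and -2.11. A p that misses the threshold does not show that the genotypes were alike.

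**Figure D3:**
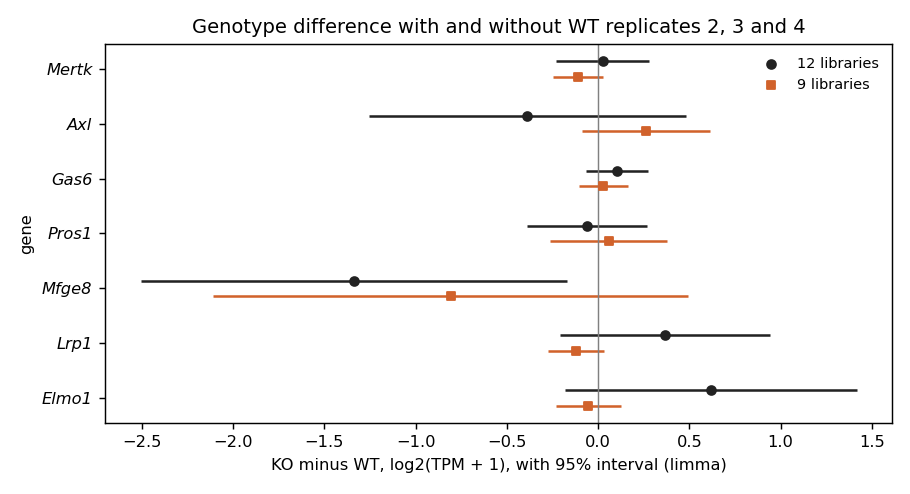
Points give KO minus WT on the log2(TPM + 1) scale for the 7 tested genes and lines their 95% intervals from limma, with all 12 libraries (black) and with the 9 without WT replicates 2, 3 and 4 (orange). Mertk, Axl, Pros1, Lrp1 and Elmo1 have opposite signs in the 2 sets, and only the 12-library interval of Mfge8 (-2.50 to -0.17, not adjusted for the number of genes) leaves out 0.

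WT replicates 2, 3 and 4 were then set beside the other WT libraries. These 3 libraries were set apart by their measured values, so the differences are given with no test. A gene was counted as apart where all 3 libraries lay on 1 side of the other 4 WT libraries and the mean TPM differed at least 2-fold. By this count 2 of 7 tested members were higher (10.8% of all tested genes) and 2 of 7 were lower (5.66% of all tested genes). Without WT replicate 6 the count was 3 of 7 in place of 4, since Mfge8 then differed by less than 2-fold.

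Axl was the higher receptor, with 179, 106 and 288 TPM for WT replicates 2, 3 and 4, while the other 4 had 48.1 to 72.6 TPM, 3.10-fold less by the means. Tyro3, which was not tested, stood at 5.28, 2.57 and 8.06 TPM against 0.18 to 0.58 TPM, a ratio of 12.2 between low levels. For both, WT replicate 4 was the highest and WT replicate 3 the lowest of the 3. Mertk went with neither: it was at 23.2, 27.1 and 17.3 TPM against 26.5 to 29.6 TPM, and WT replicate 3 lay within the range of the others. Lrp1 was at 237, 291 and 221 TPM against 489.6 to 616 TPM, 2.20-fold lower. Timd4 was listed at 0.07, 0.05 and 0.03 TPM, above the other 9 libraries and still near 0.

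Mfge8 was the bridging molecule gene that stood apart, with its 482 to 559.6 TPM against 93.8 to 353 TPM, 2.13-fold by the means. It was the highest member in each of the 3 libraries, in the place that Lrp1 held elsewhere. Gas6 was at 135, 163 and 168 TPM against 160 to 187 TPM, and Pros1 at 15.7, 14.5 and 22.1 TPM against 11.7 to 16.8 TPM, so both overlapped. Elmo1 was at 12.8, 17.1 and 10.1 TPM against 36.5 to 48.9 TPM, 3.07-fold lower, which put it below Mertk. Axl, Tyro3, Mfge8, Lrp1 and Elmo1 lay outside the range of all 9 other libraries, KO included. The smooth muscle, fibroblast and neutrophil marker sums and the Marco level given above moved with the same 3 libraries, and their part in these differences was not tested.

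**Figure D4:**
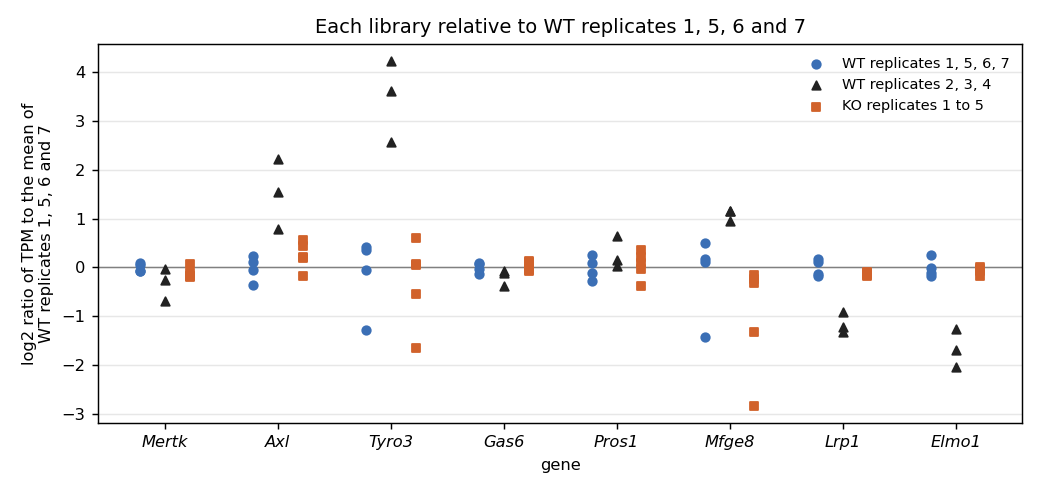
Each point is 1 library, as the log2 ratio of its TPM to the mean of WT replicates 1, 5, 6 and 7, for the 8 genes other than Timd4 and Stab2. WT replicates 2, 3 and 4 (black triangles) lie above the rest for Axl, Tyro3 and Mfge8 and below it for Lrp1 and Elmo1, while Gas6 and Pros1 overlap.

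Among the 9 libraries, Mfge8 and Axl had opposite extremes. The 3 libraries lowest in Mfge8 were KO replicate 1 at 35.6 TPM, WT replicate 6 at 93.8 TPM and KO replicate 4 at 100.1 TPM. The same 3 were the highest in Axl, at 91.1, 72.6 and 84.1 TPM. They were also lowest in the smooth muscle sum, at 127, 74.3 and 168 TPM against 248 to 421 TPM in the other 6, and in the fibroblast sum, at 66.9, 39.6 and 109 TPM against 131 to 191 TPM. In Axl, WT replicate 6 lay only just above KO replicates 2 and 3, at 71.7 and 71.0 TPM. The neutrophil sum was highest in KO replicates 1 and 4, at 6253 and 4374 TPM, but WT replicate 6, at 1192 TPM, had the second lowest. At the other end, WT replicate 5 was highest in Mfge8 (353 TPM) and lowest in Axl (48.1 TPM) of the 9. In WT replicates 2, 3 and 4 Mfge8 and Axl were both high. The part of the stromal markers in the levels of Mfge8 and Axl was not tested. The 3 libraries lowest in these markers were KO replicates 1 and 4 and WT replicate 6.

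**Figure D5:**
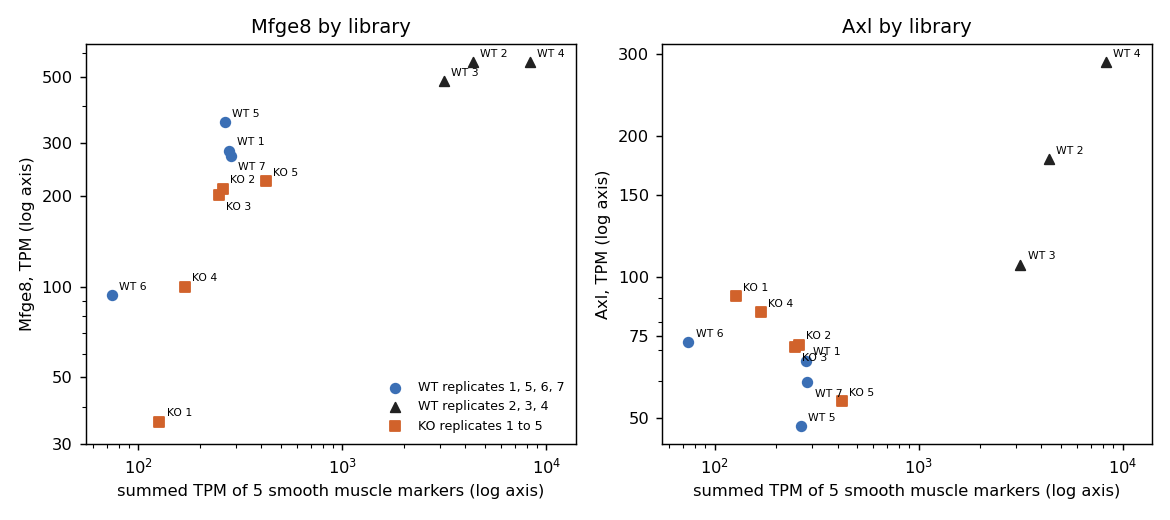
Mfge8 (left) and Axl (right) in TPM against the summed TPM of 5 smooth muscle markers, 1 point per library, on log axes. Among the 9 libraries KO 1, KO 4 and WT 6 are lowest in Mfge8 and in the marker sum and highest in Axl, WT 6 by a small margin. WT 2, 3 and 4 are high in all 3 values.

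The other genes of apoptotic cell uptake were read from the same fits. Of 97 listed, 87 were tested. With 9 libraries limma called 4 higher and 4 lower in KO, where 2.33% of all tested genes were called. With 12 libraries limma called 0, where 0.126% of all tested genes were called. At an unadjusted p under 0.05 there were 14 with 12 libraries, 16.1% against 17.5% of all tested genes, and 28 with 9, 32.2% against 18.9%. The median log2 difference of the 87 was 0.04 with 9 libraries and 0.21 with 12. Over all tested genes 180 were higher and 80 lower with 9 libraries, a split that became 79 and 146 with median-ratio scaling.

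Of 18 other recognition receptor genes, 1 rose and 2 fell with 9 libraries. Stab1, the relative of Stab2 that binds phosphatidylserine and is made by many macrophages, fell from 588 to 693 TPM in the 4 WT libraries to 340.2 to 436 TPM in the 5 KO libraries, with no overlap (log2 -0.71 ± 0.0770 SE, limma adjusted p of 0.0033). Itgb5, whose product pairs with the alpha v integrin that binds Mfge8, fell from 405 to 424 TPM to 316 to 355 TPM (log2 -0.29 ± 0.0375 SE, limma adjusted p of 0.0081). Cd14, a lipopolysaccharide co-receptor that also binds apoptotic cells, rose from 315 to 482 TPM to 507 to 526 TPM (log2 0.51 ± 0.109 SE, limma adjusted p of 0.0458). In WT replicates 2, 3 and 4 these 3 genes lay below all 9 other libraries, and with 12 libraries their log2 differences were 0.51, 0.36 and 1.50, none past the threshold (limma adjusted p of 0.618, 0.497 and 0.231). Stab1 and Itgb5 therefore had the other sign with 12 libraries.

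Of 11 other bridging molecule genes, C1qc, a chain of the complement protein that coats dying cells, fell from 1983 to 1652 TPM by the means (log2 -0.26, limma adjusted p of 0.0432). Its 12-library difference was 0.76 (limma adjusted p of 0.405). Of 19 genes of the engulfment machinery, 2 rose. Rac2, the Rac GTPase of blood cells, went from 58.6 to 80.2 TPM in WT to 106 to 176 TPM in KO (log2 0.90 ± 0.149 SE, limma adjusted p of 0.0197). Vav3, an activator of Rac, went from 16.0 to 17.4 TPM to 19.3 to 21.1 TPM (log2 0.25 ± 0.0449 SE, limma adjusted p of 0.0247). With 12 libraries the differences were 0.49 for Rac2 and 0.54 for Vav3 (limma adjusted p of 0.324 and 0.217). Among the 9 libraries Rac2 was highest in KO replicate 1, which also held the highest neutrophil sum. WT replicates 2, 3 and 4, with the lowest neutrophil sums of all, had 151, 187 and 91.4 TPM of Rac2. KO replicate 5, with the lowest neutrophil sum of the 9 libraries, had 111 TPM of Rac2. The part of neutrophil transcripts in the Rac2 difference was not tested. Elmo1, which acts upstream of Rac, did not pass the threshold, as given above.

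Of 7 nuclear receptor genes that regulate uptake genes, Nr4a1, an immediate early gene of macrophages, rose from 4.27 to 6.98 TPM by the means (log2 0.61, limma adjusted p of 0.0451). Its 12-library difference was 0.30 (limma adjusted p of 0.415). Of 7 genes for receptors of find-me signals, S1pr1, which senses sphingosine 1-phosphate, fell from 98.3 to 76.4 TPM (log2 -0.36, limma adjusted p of 0.0172). With 12 libraries S1pr1 had the other sign, at 0.25 (limma adjusted p of 0.627), and WT replicates 2, 3 and 4 lay below the other 9. None of 19 phagosome maturation genes and none of 6 genes of don't-eat-me signals and receptor shedding was called by limma with 9 libraries, with 5 and 1 at an unadjusted p under 0.05. Ctsd, a lysosomal protease, differed by -0.19 (limma adjusted p of 0.579) and Lamp1, a lysosomal membrane protein, by 0.02 (0.881). Sirpa, the receptor for the don't-eat-me signal CD47, differed by -0.02 (limma adjusted p of 0.883) and Adam10, a membrane protease gene, by -0.02 (0.909). With 12 libraries these 4 genes differed by 0.0061, -0.12, 0.27 and 0.32 in the same order (limma adjusted p of 0.986, 0.436, 0.373 and 0.333).

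Of these 8 calls, 6 were lost on leaving out 1 library, although the differences stayed close to their values with 9 libraries. Stab1 and Itgb5 stayed called whichever of the 9 libraries was left out. S1pr1 lost its call without KO replicate 4 or WT replicate 1 (limma adjusted p up to 0.0636), and Rac2 without KO replicate 3 or 4 or WT replicate 1 or 5 (up to 0.0593). Vav3 lost it in 5 of the 9 cases, without KO replicates 2, 3 or 4 or WT replicates 1 or 7 (up to 0.0839). Nr4a1 lost it in 7, all but KO replicate 1 and WT replicate 6 (up to 0.131). Cd14 and C1qc lost it in 8, all but WT replicate 6 (up to 0.134 and 0.109). In the fits without a call the log2 difference was 0.44 to 0.51 for Cd14, -0.29 to -0.25 for C1qc, 0.81 to 0.94 for Rac2, 0.23 to 0.26 for Vav3, 0.51 to 0.65 for Nr4a1 and -0.36 to -0.35 for S1pr1. Calls also ended in 9-library fits with a block for the order of submission numbers (Cd14, C1qc, Vav3 and Nr4a1), with median-ratio scaling (Cd14, Vav3 and Nr4a1) and with no filter on low genes (Cd14, C1qc, Rac2 and Nr4a1), at limma adjusted p of 0.0541 to 0.0965.

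In WT replicates 2, 3 and 4 the wider list held 9 genes that were apart and higher, 10.3% of the 87 and near the 10.8% of all genes, and 14 that were lower, 16.1% against 5.66%. The recognition receptor genes had 1 higher and 5 lower of 18. Stab1 was at 89.5, 142 and 50.1 TPM against 588 to 693 TPM in the other WT, and Itgb3, an integrin chain that can bind Mfge8, had a mean of 5.06 TPM against 2.51 TPM. Bridging molecule genes had 4 higher and 3 lower of 11. Thbs1, a matrix protein that links dying cells to CD36, was 13.1-fold higher and the pentraxin gene Ptx3 22.7-fold higher by the means, while C1qa and C1qb were 10.1-fold and 4.88-fold lower, or 16.2-fold and 7.33-fold without WT replicate 3. Of 19 machinery genes, Ptk2 (focal adhesion kinase) and Bcar1 (its scaffold) were 6.69-fold and 17.4-fold higher, and Dock2, a Rac activator of blood cells that partners Elmo1, was 3.39-fold lower. Of 7 find-me receptor genes 4 were lower, among them the fractalkine receptor gene Cx3cr1, with a mean of 3.22 TPM against 105 TPM, and the nucleotide receptor gene P2ry12, at 1.01 against 5.22 TPM, or 0.67 TPM without WT replicate 3. Ucp2, a mitochondrial carrier of the phagosome list, was 2.13-fold lower, and Pecam1, an endothelial marker and repulsion signal, was at 7.38 against 1.03 TPM, or 3.42 TPM without WT replicate 3, which held 15.3 TPM. Axl, Mfge8, Thbs1, Ptx3, Itgb3, Ptk2 and Bcar1 were thus high in the libraries that were low in Lrp1, Elmo1, Stab1, C1qa, Dock2 and Cx3cr1. The marker sums of other cell types moved with these genes and their part was not tested.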

How the data were processed

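Total RNA of 12 BMDM libraries was sequenced as paired reads of 51 bases, 30000000 pairs per library on average, as the labels' protocols state. Salmon 1.2.0 and mm10 are named in the submitters' processing notes. Not given in the sources used here are the annotation, the summing to genes and the use of strand. The deposited table holds TPM, made by the authors, for 23438 genes. TPM is a share, so abundant transcripts lower all other values. It carries no depth, so no counting interval was computed. Gas6 shares 34 exon bases with Tmem255b on the other strand. Columns were matched through the library descriptions, and 23423 genes had a symbol in GENCODE M21.

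KO was compared with WT by limma-trend (limma 3.58.1, R 4.3.3) on log2(TPM + 1) over 11152 genes that reached 1 TPM in 5 or more libraries. P-values were adjusted by Benjamini-Hochberg over all of them, with a threshold of 0.05. Differences on this scale understate the change of low genes. The fit was tested on simulated data. WT replicates 2, 3 and 4 were left out in the 9-library fits. Receptor shares and the WT libraries side by side had no test. Alternatives were scaling, filters, pseudocount, quality weights, blocks and leaving out each library. The members and lists were chosen with earlier results of these data known.

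All 10 members were named. Of each list, up to 3 genes called per direction were named, or else the 2 with the highest mean. For WT replicates 2, 3 and 4, up to 2 genes apart per list and direction were named, with the 3 genes nearest each member and Smarcd1. Marco, Csf1r, Lyz2 and the other marker genes given by value were chosen after their values were seen. Promoters came from the RefSeq table of GRCm38.p6, which held all 10 members.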

Additional observations from a re-analysis of the deposited data

Results flagged for a closer look

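Stab2 was flagged because 1 WT library lay far from the other 6. WT replicate 3 stood at 1.19 TPM, with WT replicate 4 next at 0.54 TPM and the rest at 0.08 to 0.31 TPM. KO replicate 5 reached 1.17 TPM. The endothelial marker sum was also highest in WT replicate 3, at 51.2 TPM, but was 10.4 TPM in KO replicate 5. The part of endothelial transcripts was not tested. Among the 19 groups of member values checked, chance alone flags about 1 in 20.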

How the results depend on the processing

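No member was called under any of the 20 alternatives run with 12 libraries or the 17 with 9. The genes called with 12 libraries (14) became 4 with median-ratio scaling, 759 with sample quality weights, 3 with a submission block and 2 to 36 on leaving out each library. The 260 called with 9 libraries became 167 with no filter, 758 with quality weights, 132 with the submission block and 51 to 462 on leaving out each library. With 12 libraries, the sign of Mertk turned with scaling (-0.021), with weights (-0.12) and on leaving out libraries (-0.063 to 0.061). Weights also turned Axl (0.25), Pros1 (0.034) and Lrp1 (-0.11), and leaving out libraries gave -0.13 to 0.041 for Pros1. With 9 libraries, Gas6 turned with scaling (-0.023), and leaving out libraries gave -0.017 to 0.059 for Gas6, -0.023 to 0.16 for Pros1 and -0.10 to 0.033 for Elmo1. The causes were not tested.

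Replicate numbers gave no sign of pairing in a check over all 12 libraries. WT deviations there were taken from a mean that included WT replicates 2, 3 and 4, which stood apart, so the check could miss a pairing. Deviations of same-numbered libraries correlated at -0.22 to 0.22, and 1 of 5 WT libraries correlated best with its own number. The replicate block left 0 genes called by limma with 12 libraries, where 3706 had an unadjusted p under 0.05, and the same libraries gave 13 with no block. In the 9-library set it rests on 4 libraries. It left 0 genes called by limma there, as did the same 4 with no block, with Gas6 at -0.044, Pros1 at -0.29 and Elmo1 at 0.0067 in both fits.

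TPM holds no depth, so the precision of Tyro3, Timd4 and Stab2 is unknown. No label gives a batch, and the submission block is only the order of submission numbers.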

Other observations

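For each tested member, the genes with the most similar pattern over the 12 libraries were found, by the root-mean-square difference of log2(TPM + 1) after each gene was centred on its mean. The points include WT replicates 2, 3 and 4, which stood apart for many genes, and likeness is a description with no test. Elmo1 lay nearest Pid1 (0.0533), Dock8 (0.0541) and Neurl3 (0.0718), against its own variation of 0.690 on the same scale. Lrp1 lay nearest Tal1 (0.0825), Gtpbp2 (0.0930) and Tspan14 (0.0986), with an own variation of 0.482. The nearest genes of Axl were Rhou (0.213), Cited2 (0.215) and Chst15 (0.215), with an own variation of 0.701.

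Mfge8 had the largest own variation, 1.12, and its nearest genes were farther away, namely Ctsk (0.420), Plpp3 (0.436) and F7 (0.440). Mertk, Gas6 and Pros1 varied least of the tested members, by 0.190, 0.132 and 0.248. Their nearest genes were Ptpre (0.0577), Rwdd2a (0.0721) and Cyba (0.0810) for Mertk, Ppm1k (0.0640), Stx17 (0.0663) and Slc35b3 (0.0722) for Gas6, and Mapk11 (0.0937), Akap17b (0.0938) and Yipf5 (0.109) for Pros1.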
